A study of Mus musculus with 30 samples.

Results

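The 42 genes described here encode the serine/arginine-rich (SR) splicing factors, the kinases that phosphorylate them, the heterogeneous nuclear ribonucleoproteins (hnRNPs) and a few SR-related proteins of the nuclear speckles. They were chosen by name from a list and matched by gene symbol, with 12 SR proteins (Srsf1 to Srsf11 without Srsf8, Tra2a and Tra2b), 6 kinases (Clk1 to Clk4, Srpk1 and Srpk2), 19 hnRNPs and 5 SR-related proteins (Rbm39, Rbm25, Son, Srrm1 and Srrm2). All 42 were found among the 31854 genes of the CALM/AF10 table, the 34406 genes of the GMP table and the 32564 genes of the cell line files. The authors' 4 tables of changed splice junctions held 73 rows of these genes among 1866.

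The 30 samples came from C57BL/6 mice and fall into 10 groups of 3. A time course followed acute myeloid leukemia (AML) cells with the CALM/AF10 fusion and normal bone marrow granulocyte-macrophage progenitors (GMP) at 6 h and 10 h of RG3039, an inhibitor of the mRNA decapping scavenger enzyme Dcps, at 1 µM per the file headers, against cells taken before treatment (0 h). The other samples were 4 untreated AML lines, each with 3 samples: MLL/AF9 lines 2 and 1 and CALM/AF10 lines 2 and 1. No untreated cells were taken at 6 h or 10 h, so time in culture and the drug cannot be told apart. Nothing in the labels shows that samples of one group came from separate cultures, and p-values therefore measure only the spread between these samples, which may be technical. In bulk RNA, fewer cells of a type and less RNA per cell cannot be told apart.

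The time course was given as TPM (a length-scaled level that adds to the same total in every sample), so its sequencing depth is unknown. Estimated reads per sample numbered 8739673 to 25194822 in the lines. Within a time-course group the samples are called a, b and c in the order of the table's columns. Markers of myeloid progenitors were present throughout: all 12 genes of that list were above 0 in every group. In GMP their summed level was 20577 to 21536 TPM at 0 h, 12796 to 13396 TPM at 6 h and 10631 to 11174 TPM at 10 h, so it fell as the regulators below changed. Other lists of markers fell in GMP too. The eosinophil and mast cell list summed to at least 286 TPM at 0 h, at most 207 TPM at 6 h and at most 201 TPM at 10 h. The megakaryocyte list summed to 196 to 249 TPM, 130 to 145 TPM and 126 to 149 TPM at these times, and the B cell list to 20.8 to 23.1 TPM, 17.2 to 18.7 TPM and 12.2 to 14.2 TPM. The part of these markers in the changes of the regulators was not tested. In the CALM/AF10 time course the myeloid sum was 6828 to 7339 TPM at 0 h, 6936 to 7083 TPM at 6 h and higher at 10 h, at 7548 to 7797 TPM. The leukemia program list (Hoxa5, Hoxa7, Hoxa9, Hoxa10 and Meis1) fell there, from 382 to 395 TPM at 0 h to 339 to 351 TPM at 6 h and 343 to 352 TPM at 10 h. The megakaryocyte list summed to 188 to 223 TPM at 0 h, 176 to 194 TPM at 6 h and 152 to 161 TPM at 10 h. The stromal list summed to at most 1.07 TPM and the erythroid list to at most 1.58 TPM. The part of these lists in the CALM/AF10 changes was not tested either.

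SR proteins bind exonic enhancers and recruit the spliceosome, and most hnRNPs bind exons or flanking introns and block or redirect it. CLK kinases in the nucleus and SRPK kinases in the cytoplasm phosphorylate the serine-arginine repeats, which sets where SR proteins reside and how active they are. Many genes of both families limit their own output by splicing in a poison exon, which carries a premature stop codon and sends the transcript to nonsense-mediated decay (NMD), or by keeping an intron. A change in the use of such an exon therefore bears on the amount of coding mRNA.

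The alternative exons that carry the junction results are shown first, because the same genes recur below. Coordinates are GRCm38 (mm10) and the bases were read from the GENCODE M21 transcripts, in the sense of the gene. Of the poison exons, the run from the first base of the exon to the end of its first in-frame stop codon is given, with that stop in capitals.
Srsf3 poison exon, chr17:29039454-29039909, plus strand, 456 bases long: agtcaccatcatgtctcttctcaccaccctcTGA
Srsf7 poison exon, chr17:80204622-80205081, minus strand, 460 bases long: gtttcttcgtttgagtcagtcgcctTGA
Tra2a poison exon, chr6:49252803-49253108, minus strand, 306 bases long: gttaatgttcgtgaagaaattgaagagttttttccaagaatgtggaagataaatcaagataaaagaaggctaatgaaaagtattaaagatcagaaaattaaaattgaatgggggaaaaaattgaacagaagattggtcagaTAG
Tra2b poison exon, chr16:22258986-22259261, minus strand, 276 bases long: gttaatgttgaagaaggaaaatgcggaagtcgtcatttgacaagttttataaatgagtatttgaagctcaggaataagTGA
Rbm39 poison exon, chr2:156178880-156178952, minus strand, 73 bases long: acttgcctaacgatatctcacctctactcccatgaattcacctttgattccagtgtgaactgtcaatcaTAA
The stop falls 28 bases into the Srsf7 exon and 34 bases into the Srsf3 exon, against 144 bases into the Tra2a exon.

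The hnRNP cassettes are coding instead, and are printed in lower case with nothing marked. The Hnrnpd, Hnrnpa2b1 and 78-base Ptbp1 exons have lengths divisible by 3, so that leaving them out keeps the reading frame, whereas the 34-base Ptbp1 exon shifts it.
Hnrnpd coding exon, chr5:99976534-99976590, minus strand, 57 bases: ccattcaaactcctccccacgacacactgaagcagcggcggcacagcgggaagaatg
Hnrnpa2b1 coding exon, chr6:51464428-51464547, minus strand, 120 bases: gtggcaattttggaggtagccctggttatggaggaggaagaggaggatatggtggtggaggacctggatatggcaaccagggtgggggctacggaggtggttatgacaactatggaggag
Ptbp1 coding exon, chr10:79860117-79860194, plus strand, 78 bases: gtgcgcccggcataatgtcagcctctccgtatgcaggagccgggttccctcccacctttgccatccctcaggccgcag
Ptbp1 frame-shifting exon, chr10:79862014-79862047, plus strand, 34 bases: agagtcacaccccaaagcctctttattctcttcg

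In GMP the regulators moved in both directions within 6 h, and the largest change was a loss of Clk1 mRNA. At 6 h 11 of the 42 rose and 12 fell, and at 10 h 16 rose and 10 fell. Of all genes tested in GMP, 44% were called at 6 h and 45.1% at 10 h, among them 24.1% higher and 19.9% lower at 6 h and 23.7% higher and 21.5% lower at 10 h. A gene was called at an adjusted p under 0.05 in limma on log2(TPM + 1), and all 42 passed the filter on low values. After quantile normalization the calls were 8 higher and 18 lower at 6 h, and 8 higher and 17 lower at 10 h, so the balance of rises and falls depends on the scaling. Of all genes 22.9% were then higher and 21.7% lower at 6 h, and 22.8% higher and 21.3% lower at 10 h.

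Clk1, the nuclear kinase that phosphorylates SR proteins, had 54.3, 63.5 and 52.2 TPM in GMP at 0 h, 17.2, 12.6 and 16.4 TPM at 6 h and 18.8, 19.5 and 18.6 TPM at 10 h. Each treated sample was below each untreated sample by a wide margin. Its log2 change was -1.82 ± 0.12 at 6 h (standard error, adjusted p = 3.8e-06) and -1.52 ± 0.12 at 10 h (adjusted p = 9.1e-06). Its close paralog Clk4 had 52.9, 58.4 and 59.6 TPM at 0 h, 29.1, 36.2 and 34.3 TPM at 6 h and 33.3, 39.7 and 34.8 TPM at 10 h. That was a change of -0.76 ± 0.10 at 6 h (adjusted p = 2.3e-04) and -0.65 ± 0.10 at 10 h (adjusted p = 5.4e-04). Reads could be shared between these paralogs, and how the quantifier treated that is not given in the sources used here. The other kinases did not follow them. Srpk1 rose at both times, with changes of 0.46 and 0.42, Srpk2 rose at 6 h only by the test against 0 h (0.40), and Clk2 passed the test at 10 h only (0.48). Clk3 passed it at neither time.

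The SR proteins of GMP split into members that rose and members that fell, 6 and 3 of 12 at each time. Srsf2, which binds exonic enhancers and is recurrently mutated in human myeloid disease, had 247, 238 and 194 TPM at 0 h, 307, 343 and 351 TPM at 6 h and 415, 335 and 306 TPM at 10 h. Its change was 0.56 ± 0.12 at 6 h (adjusted p = 0.00536) and 0.63 ± 0.12 at 10 h (adjusted p = 0.00282). Srsf9 had 23.4, 25 and 24.7 TPM at 0 h, 35.5, 31.4 and 38.8 TPM at 6 h and 41.8, 40.8 and 38.1 TPM at 10 h. It rose by 0.51 ± 0.08 (adjusted p = 8.5e-04) and by 0.70 ± 0.08 (adjusted p = 1.2e-04). Srsf1, the prototype of the family, rose by 0.25 at 6 h and by 0.57 at 10 h, and Srsf6, Srsf7 and Srsf10 rose by 0.13 to 0.33.

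Srsf4, Srsf5 and Tra2a went the other way in GMP. Srsf5 had 179, 198 and 173 TPM at 0 h, 152, 142 and 152 TPM at 6 h and 113, 124 and 115 TPM at 10 h, a level lower at each later time. Its change against 0 h was -0.30 ± 0.07 at 6 h (adjusted p = 0.00532) and -0.64 ± 0.07 at 10 h (adjusted p = 5.4e-05). Between 10 h and 6 h it was -0.35 ± 0.07 (adjusted p = 0.0169), a call lost when either of samples a and c was left out at 6 h or at 10 h. Srsf4 had 45.7, 49.7 and 43.4 TPM at 0 h, 35.4, 31.1 and 27.5 TPM at 6 h and 38, 37.1 and 37.5 TPM at 10 h. It was lowest at 6 h, with a change of -0.55 ± 0.09 (adjusted p = 0.00102), and changed by -0.29 ± 0.09 at 10 h (adjusted p = 0.0253). Tra2a, an SR-like activator of exons, fell by 0.20 and 0.39 on the log2 scale.

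Among the 19 hnRNPs of GMP 3 rose and 5 fell at 6 h, and 8 rose and 4 fell at 10 h. Hnrnpab had 478, 490 and 447 TPM at 0 h, 617, 614 and 681 TPM at 6 h and 768, 749 and 724 TPM at 10 h. Its samples did not overlap between any of the 3 times, with a change of 0.43 ± 0.06 at 6 h (adjusted p = 3.1e-04) and 0.66 ± 0.06 at 10 h (adjusted p = 2.1e-05). Hnrnpd, also called AUF1, which binds AU-rich elements, rose by 0.46 and 0.48, and Hnrnpf, which binds G-rich tracts, by 0.21 and 0.32. Hnrnph3, Hnrnpul1 and Ptbp3 fell at both times, by 0.15 to 0.37 on the log2 scale.

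Ptbp1, the polypyrimidine tract repressor, was the only regulator of the 42 called in opposite directions at the 2 times in GMP. It had 563, 560 and 535 TPM at 0 h, 450, 451 and 441 TPM at 6 h and 603, 621 and 641 TPM at 10 h. The 6 h samples were below and the 10 h samples above the untreated ones. Its change was -0.30 ± 0.04 at 6 h (adjusted p = 5.0e-04), 0.17 ± 0.04 at 10 h (adjusted p = 0.0117) and 0.47 ± 0.04 for 10 h against 6 h (adjusted p = 9.5e-04). The rise at 10 h changed sign after quantile normalization, to -0.05, and was not called without sample c of 10 h. Of the SR-related proteins Rbm39 fell most. This partner of U2AF had 229, 261 and 221 TPM at 0 h, 154, 159 and 147 TPM at 6 h and 170, 160 and 173 TPM at 10 h, changes of -0.62 ± 0.07 (adjusted p = 1.0e-04) and -0.50 ± 0.07 (adjusted p = 3.7e-04). Rbm25, Son and Srrm1 passed the test at neither time, with changes between -0.15 and 0.04.

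**Figure D1:**
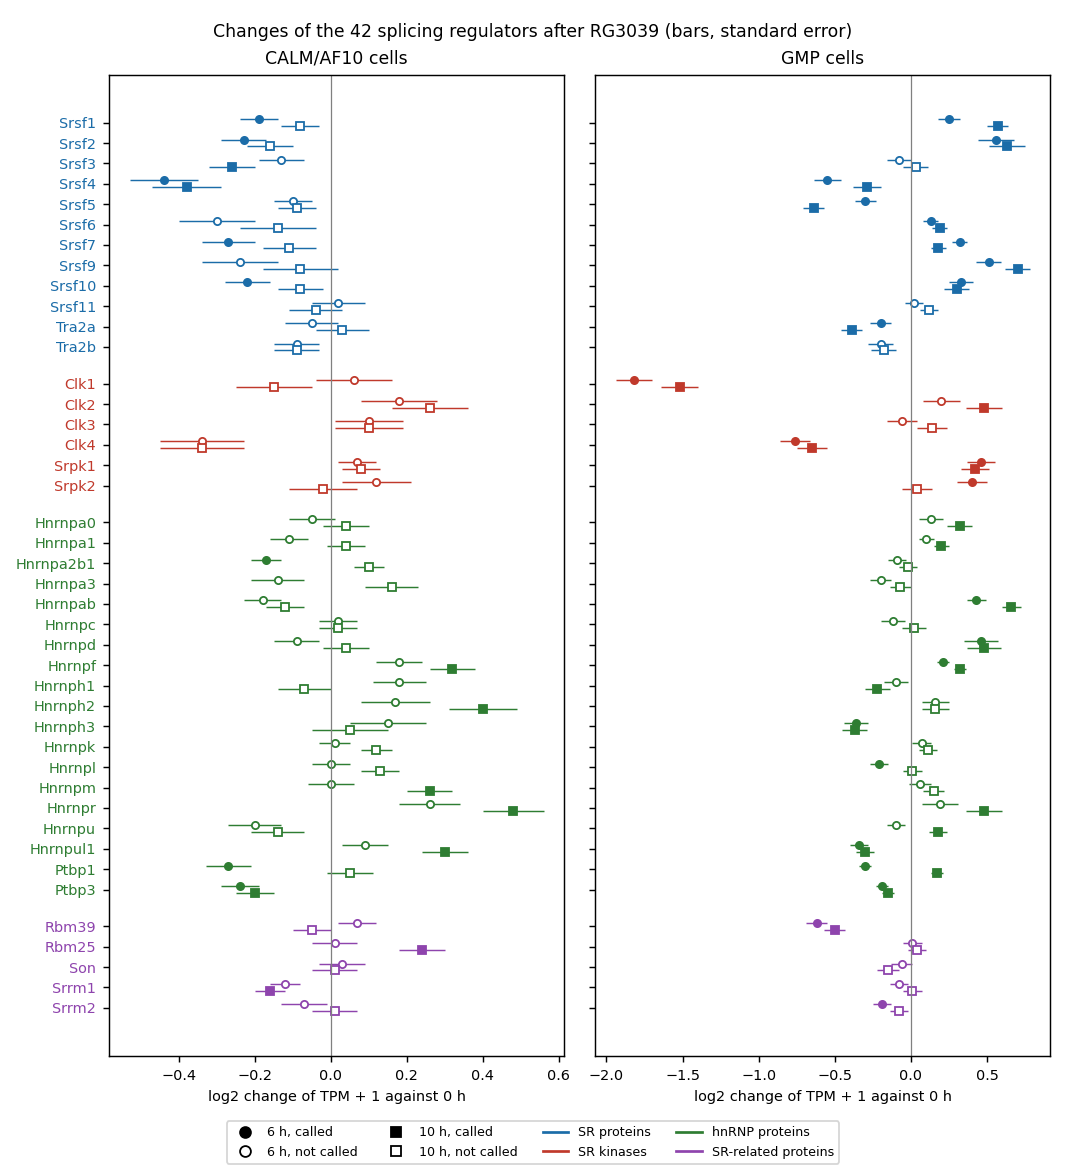
Log2 change of log2(TPM + 1) at 6 h (circles) and 10 h (squares) against 0 h for each of the 42 regulators in CALM/AF10 cells (left) and GMP (right), with standard errors and filled symbols for called genes; the horizontal scales differ. Clk1 stands furthest from 0 in GMP, at -1.82 and -1.52, while no CALM/AF10 change exceeds 0.48 in size.

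In CALM/AF10 leukemia cells fewer of the same genes were called. At 6 h 8 of the 42 fell and none rose, against 12.6% of all genes called, 5.44% higher and 7.14% lower. At 10 h 6 rose and 4 fell, against 19.2% of all genes called, 10.5% higher and 8.64% lower. Among the 42, 18 had an unadjusted p under 0.05 at 6 h, against 3400 of all 12815 genes. The changes of all 42 lay between -0.44 and 0.48 on the log2 scale at both times. The count at 6 h was not stable. It ranged from 1 to 12 when 1 sample was left out, was 1 without sample c of 6 h, 2 without sample a of 6 h or sample a or c of 0 h, 4 without b of 6 h and 5 without b of 0 h, and was 3 higher and 5 lower after centring on the median, against 8.05% and 5.7% of all genes. The count at 10 h was 6 without sample b of 10 h.

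Clk1 did not pass the test in CALM/AF10 cells. It had 18.9, 20.1 and 22.3 TPM at 0 h, 22.2, 21.5 and 20.5 TPM at 6 h and 16.3, 17.6 and 21.5 TPM at 10 h, so the groups overlapped. Its change was 0.06 ± 0.10 at 6 h (adjusted p = 0.754) and -0.15 ± 0.10 at 10 h (adjusted p = 0.342). Clk4 had 40.9, 42.9 and 42.2 TPM at 0 h, 34.9, 30.9 and 33.5 TPM at 6 h and 26.7, 36.2 and 37.1 TPM at 10 h. All treated samples were below the untreated ones, yet the change of -0.34 ± 0.11 missed the threshold at both times (adjusted p = 0.0772 at 6 h and 0.0575 at 10 h). None of the 6 kinases was called at either time.

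At 6 h the CALM/AF10 calls were 5 SR proteins and 3 hnRNPs, all lower. Srsf4 had 24, 27.6 and 26 TPM at 0 h, 17.2, 18.2 and 20.9 TPM at 6 h and 18.1, 21 and 19.9 TPM at 10 h, with no overlap between treated and untreated samples. It changed by -0.44 ± 0.09 at 6 h (adjusted p = 0.00887) and by -0.38 ± 0.09 at 10 h (adjusted p = 0.0133). Srsf4 and Ptbp3 were the only members lower at both times. Ptbp3, a paralog of Ptbp1 enriched in blood cells, had 173, 180 and 178 TPM at 0 h, 148, 152 and 149 TPM at 6 h and 142, 156 and 164 TPM at 10 h, changes of -0.24 ± 0.05 (adjusted p = 0.0164) and -0.20 ± 0.05 (adjusted p = 0.0258). Both genes also fell in GMP. Srsf7 (-0.27), Ptbp1 (-0.27), Srsf2 (-0.23), Srsf10 (-0.22), Srsf1 (-0.19) and Hnrnpa2b1 (-0.17) were lower at 6 h alone. Of these genes Srsf4 kept its 6 h call whichever sample was left out. Srsf7, Ptbp1, Ptbp3, Srsf2, Srsf10 and Hnrnpa2b1 lost it in several of these settings, and each sample of 0 h and 6 h ended at least 1 of those calls.

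By 10 h the rises in CALM/AF10 cells were mostly hnRNPs, with 5 higher and 1 lower of 19. Hnrnpr had 33.9, 38.7 and 37.6 TPM at 0 h, 45.5, 42.9 and 44.3 TPM at 6 h and 48.9, 47.7 and 59 TPM at 10 h. The change was 0.26 ± 0.08 at 6 h (adjusted p = 0.0685) and 0.48 ± 0.08 at 10 h (adjusted p = 0.00324), and the 6 h change passed the threshold after median centring or quantile normalization. Hnrnph2 had 33, 34.8 and 43.7 TPM at 10 h against 27.9, 28.3 and 27.1 TPM at 0 h, a change of 0.40 ± 0.09 (adjusted p = 0.0142). Hnrnpf rose by 0.32 ± 0.06 (adjusted p = 0.00396), Hnrnpul1 by 0.30 ± 0.06 (adjusted p = 0.00924), Hnrnpm by 0.26 ± 0.06 (adjusted p = 0.01) and Rbm25 by 0.24 ± 0.06 (adjusted p = 0.0258). Srsf3 fell by 0.26 and Srrm1 by 0.16. From 6 h to 10 h Ptbp1 (0.32), Hnrnpa2b1 (0.26) and Hnrnpm (0.26) rose, against 2.93% of all genes called and 2.18% called higher, and none of the 3 stayed called in a fit of these times alone or without any one sample of 6 h. In GMP 4 members rose and 1 fell between these times, against 7.08% of all genes called, 3.21% higher and 3.87% lower. The one that fell was Srsf5, and Ptbp1, Srsf1, Hnrnpu and Hnrnpab rose, of which Srsf1, Hnrnpu and Hnrnpab lost their call when either of samples a and b of 10 h was left out.

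**Figure D2:**
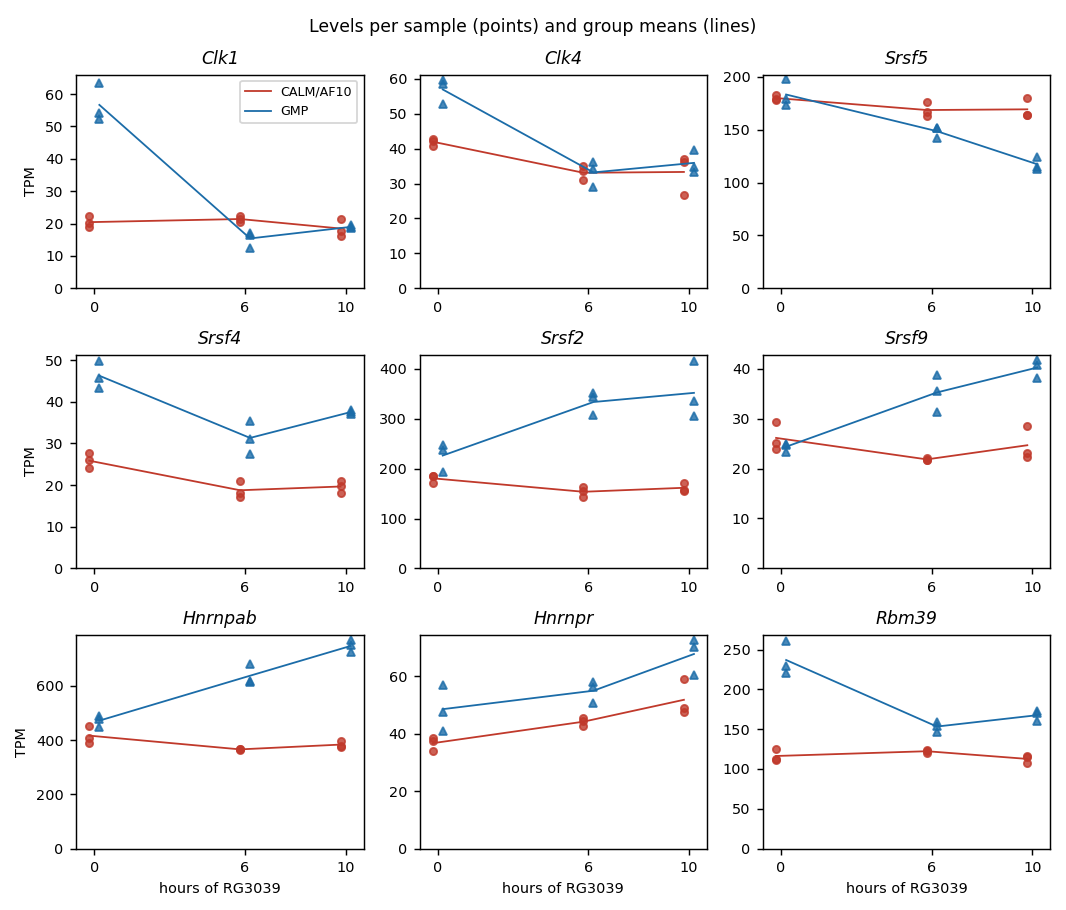
TPM of 9 regulators in each sample at 0, 6 and 10 h of RG3039 (points, 3 samples per group) with group means (lines), CALM/AF10 cells as circles and GMP as triangles; the axes start at 0. In GMP the points of Clk1, Srsf5 and Rbm39 lie below and those of Srsf2, Srsf9 and Hnrnpab above 0 h, those of Srsf4 lie below it in both, and levels are shown side by side because the tables were normalized separately.

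The log2 changes of the 2 cell types were set against each other directly, with that of GMP subtracted from that of CALM/AF10 cells. It passed the threshold for 16 of the 42 at 6 h, 6 of them positive and 10 negative, and for 18 at 10 h, 6 positive and 12 negative. Of all genes 38.5% passed at 6 h, 16.2% positive and 22.2% negative, and 38.7% at 10 h, 18.5% positive and 20.2% negative, so the regulators' share was near that of all genes. Clk1 had the largest difference, 1.88 ± 0.16 at 6 h (adjusted p = 2.1e-07) and 1.38 ± 0.16 at 10 h (adjusted p = 5.6e-06). Among the 12 SR proteins the difference was positive for 0 and negative for 6 at 6 h, and positive for 2 and negative for 7 at 10 h. The positive ones were Srsf5 (0.55 ± 0.08, adjusted p = 6.1e-05) and Tra2a (0.42 ± 0.10, adjusted p = 0.00267). Srsf2 (-0.80 ± 0.15 at 6 h and -0.79 ± 0.15 at 10 h) and Srsf9 (-0.75 ± 0.13 and -0.78 ± 0.13) led the negative ones, with adjusted p = 4.8e-04 and 5.0e-04 for Srsf2 and 2.9e-04 and 1.9e-04 for Srsf9. Quantile normalization turned the balance of signs round, to 12 positive and 9 negative at 6 h and 14 positive and 6 negative at 10 h, against 19.1% and 20.1% of all genes at 6 h and 19% and 20% at 10 h. Srsf4 gave no call (0.11 ± 0.13 and -0.09 ± 0.13).

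Hnrnpu was listed at very different levels in the tables. It stood at 11.4 to 14.4 TPM in the 9 CALM/AF10 samples, at 220 to 289 TPM in the 9 GMP samples and at 154 to 429 TPM in the 12 line samples, which include CALM/AF10 lines. The tables list different sets of genes, so its level is not compared between them, and only its change within each table is used.

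Listed splice junctions were more frequent among the regulators than among expressed genes in general, a difference that was not tested. The regulators and the other genes were not matched for level or for number of annotated transcripts. The 42 were also chosen with earlier results of these data known. The percent spliced in (PSI) is the share of reads at a splice site that use a given junction, and a junction is listed where its share rose after treatment at a q under 0.05. Among the 42 genes 11 had a listed junction in the authors' deposited table of CALM/AF10 cells at 6 h, 11 in that at 10 h, 11 in that of GMP at 6 h and 15 in that of GMP at 10 h. That is 26.2% and 35.7% of the regulators. Among all genes with a mean of at least 10 TPM it was 4.77% and 6.85% in CALM/AF10 cells and 3.42% and 4.39% in GMP, at 6 h and 10 h. Of the 42, 7 had listed junctions in both cell types, 7 in CALM/AF10 cells alone, 9 in GMP alone and 19 in neither, the last group holding Clk1, Clk4, Srsf1, Srsf4 and Srsf9. All values in the next paragraphs are the authors' group means, with no error or n of their own.

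In GMP the junction that rose often skipped a poison exon or replaced an NMD junction. Where GENCODE M21 assigns the listed junction to a coding transcript and a competitor to NMD but to no coding transcript, it was counted as coding over NMD, a class set up after the values had been seen. The authors' deposited tables held 6 such junctions among 16 of the regulators at 6 h, against 4.47% of all 291 listed in GMP, and 7 among 22 at 10 h, against 4.25% of 400. For CALM/AF10 cells the authors' deposited tables held none among 18 or among 17 (1.44% of 486 and 1.45% of 689 overall), and the reverse class held 2 and 1. The authors' own prediction of NMD named 4 of 18 and 2 of 17 regulator junctions in CALM/AF10 cells, against 32.5% and 26.3% of all listed, and none in GMP, against 16.5% and 15.5%.

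The skipping junction of the Srsf7 poison exon stood at 44% PSI at 0 h, 73% at 6 h and 68% at 10 h in GMP, per the authors' deposited tables (q = 1.1e-05 at 6 h and 0.032 at 10 h). The authors' deposited tables gave, for Tra2b, 48% at 0 h, 71% at 6 h and 73% at 10 h, with a q listed as 0 at both times. Tra2b mRNA itself changed by -0.20 ± 0.08 (adjusted p = 0.0714) and -0.18 ± 0.08 (adjusted p = 0.0976), and that of Srsf7 by 0.32 ± 0.05 (adjusted p = 0.00126) and 0.18 ± 0.05 (adjusted p = 0.0226), the second call being lost without sample a or c of 0 h or of 10 h. Srsf3 skipped its poison exon at 87% PSI at 6 h against 59% at 0 h (q = 1.34e-07), and Tra2a at 62% at 10 h against 39% at 0 h (q = 1.51e-09), each in 1 of the authors' deposited tables. The share of reads that skip the poison exons of these 4 SR genes thus rose in GMP after treatment, at 1 or both times, by the test in the authors' deposited tables. From such a share, less inclusion of the exon and faster decay of the transcripts that hold it cannot be told apart.

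Rbm39 had the most listed junctions of any SR-related gene in GMP at 10 h. Skipping of its poison exon reached 72% PSI at 6 h against 49% at 0 h, counted at the intron's end, in the authors' deposited table of that time. At 10 h the authors' deposited table gave 83% against 65% at 0 h for the same intron, counted at its start, which is why its 0 h values differ. It also listed 94% against 81% at 0 h for skipping of an exon further downstream (chr2:156173023-156177335), in the authors' deposited table. The competing junction was annotated only in NMD transcripts there, and in NMD and retained-intron transcripts at the poison exon. Total Rbm39 mRNA fell over the same hours, as given above. Srsf11 used its coding junction (chr3:158022951-158026724) at 74% PSI at 10 h against 57% at 0 h in GMP, per the authors' deposited table (q = 1e-06).

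In Srsf2, Hnrnph1 and Hnrnpc the listed GMP junctions concern introns and 3′ splice sites. An intron of Srsf2 (chr11:116850354-116850855) was retained at 66% PSI at 0 h, 89% at 6 h and 86% at 10 h in the authors' deposited tables, while Srsf2 mRNA rose. Hnrnph1, whose mRNA changed by -0.10 ± 0.08 (adjusted p = 0.326) and -0.22 ± 0.08 (adjusted p = 0.0393), spliced the intron at chr11:50379965-50381458 at 69% PSI at 0 h, 85% at 6 h and 82% at 10 h, per the authors' deposited tables. The 10 h call of Hnrnph1 mRNA was lost after median centring and when sample b of 0 h, a of 6 h or any sample of 10 h was left out. Hnrnpc used a more distal 3′ splice site (chr14:52098041-52103888) at 25% PSI at 0 h, 41% at 6 h and 45% at 10 h in the authors' deposited tables. Hnrnpc mRNA changed by -0.12 ± 0.08 (adjusted p = 0.254) and 0.02 ± 0.08 (adjusted p = 0.849).

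Coding cassettes of hnRNPs moved too. Inclusion of the 57-base Hnrnpd exon rose in both cell types, at its downstream junction (chr5:99967388-99976533) to 70% and 72% PSI at 6 h and 10 h against 60% at 0 h in CALM/AF10 cells, and to 71% and 68% against 53% in GMP, per the authors' deposited tables. Hnrnpd mRNA rose in GMP as given above but changed by -0.09 ± 0.06 (adjusted p = 0.374) and 0.04 ± 0.06 (adjusted p = 0.638) in CALM/AF10 cells. The 120-base Hnrnpa2b1 exon went opposite ways. It was skipped at 35% and 38% PSI at 6 h and 10 h against 29% at 0 h in GMP, while its upstream junction was included at 74% at 6 h against 70% at 0 h in CALM/AF10 cells, per the authors' deposited tables. Hnrnpa2b1 mRNA in GMP changed by -0.09 ± 0.06 (adjusted p = 0.218) and -0.02 ± 0.06 (adjusted p = 0.779).

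Ptbp1 skipped its 78-base exon, whose absence weakens repression by the protein in other mammalian cells, at 56% PSI at 0 h, 66% at 6 h and 68% at 10 h in GMP, per the authors' deposited tables. In CALM/AF10 cells the authors' deposited table listed skipping of the 34-base exon instead, a frame shift annotated only in NMD transcripts, at 8% PSI at 6 h against 4% at 0 h (q = 0.00012). Retention of an early intron of Ptbp1 was at 4% against 2% there, and by 10 h splicing of the intron after the 34-base exon was at 94% against 90%, per the authors' deposited tables. Ptbp1 mRNA was lower at 6 h in CALM/AF10 cells and in GMP, as given above, and in GMP only skipping of the 78-base exon was listed for it. Whether the NMD junction bears on the level of the mRNA was not tested.

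Hnrnpr and Hnrnpf had the largest PSI changes of any regulator in CALM/AF10 cells. Near the start of the Hnrnpr gene a more proximal 5′ splice site (chr4:136311748-136314086) was used at 27% PSI at 0 h, 56% at 6 h and 60% at 10 h, in the authors' deposited tables. Inclusion of the exon downstream of it, read at the intron chr4:136314256-136316360, was 41% at 0 h, 73% at 6 h and 72% at 10 h in the authors' deposited tables. Both switches stood beside the rise of Hnrnpr mRNA, and none of its junctions was listed in GMP, where the mRNA was higher at 10 h too (0.48 ± 0.12, adjusted p = 0.00962). A Hnrnpf intron that starts at position 117907919 of chr6 was retained at 52% PSI at 6 h against 19% at 0 h, from a mean of 67 reads against 21, per the authors' deposited table. No GENCODE M21 transcript has that intron. Its start lies inside the annotated intron chr6:117907209-117917469, which ends at the same base. Retention at the start of this annotated intron was listed at 34% against 21%, per the authors' deposited table. These Hnrnpf rows may therefore not be separate events, and no Hnrnpf junction was listed in CALM/AF10 cells at 10 h.

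Smaller switches in CALM/AF10 cells concerned Clk2, Srsf11, Hnrnph2 and Hnrnpl. Retention of the Clk2 intron that starts at 89165107 of chr3 was 13% PSI at 0 h, 27% at 6 h and 30% at 10 h, per the authors' deposited tables. Clk2 mRNA changed by 0.18 ± 0.10 (adjusted p = 0.323) and 0.26 ± 0.10 (adjusted p = 0.119). Srsf11 moved the opposite way to GMP at the same splice site: its NMD junction (chr3:158022951-158023242) was used at 6% PSI at 0 h, 17% at 6 h and 15% at 10 h, per the authors' deposited tables. Srsf11 mRNA did not pass the test in either cell type, with changes of 0.02 ± 0.07 (adjusted p = 0.893) and -0.04 ± 0.07 (adjusted p = 0.756) in CALM/AF10 cells. Srsf2 also moved opposite to GMP, since splicing of the intron that GMP retained more was at 24% at 6 h against 15% at 0 h, per the authors' deposited table (q = 0.000473). Hnrnph2 used a distal 3′ splice site at 54% at 10 h against 42% at 0 h, and Hnrnpl a site at 8% against 1%, per the authors' deposited table. The difference between cell types was not tested for any junction, because the tables hold group means.

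Srrm2, the scaffold of nuclear speckles, was listed in all 4 tables with the same intron, chr17:23822701-23823790. Its use was at 90% at 6 h and 10 h against 85% at 0 h in CALM/AF10 cells, and at 91% and 90% against 82% and 81% in GMP, per the authors' deposited tables. A coding 3′ splice site of Srrm2 was at 97% against 93% at both times in GMP, per the authors' deposited tables. Srrm2 mRNA fell in GMP at 6 h (-0.19 ± 0.06, adjusted p = 0.0268) but not by the test at 10 h (-0.08 ± 0.06, adjusted p = 0.283). The 6 h call was lost when sample b of 0 h, or b or c of 6 h, was left out. In CALM/AF10 cells Srrm2 mRNA changed by -0.07 ± 0.06 (adjusted p = 0.51) and 0.01 ± 0.06 (adjusted p = 0.919). Hnrnpk, the most abundant regulator of untreated GMP at 597 TPM, had a rare exon at 1% against 0% at both times in CALM/AF10 cells, per the authors' deposited tables, without a called change of mRNA (0.01 ± 0.04, adjusted p = 0.899, and 0.12 ± 0.04, adjusted p = 0.0521).

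**Figure D3:**
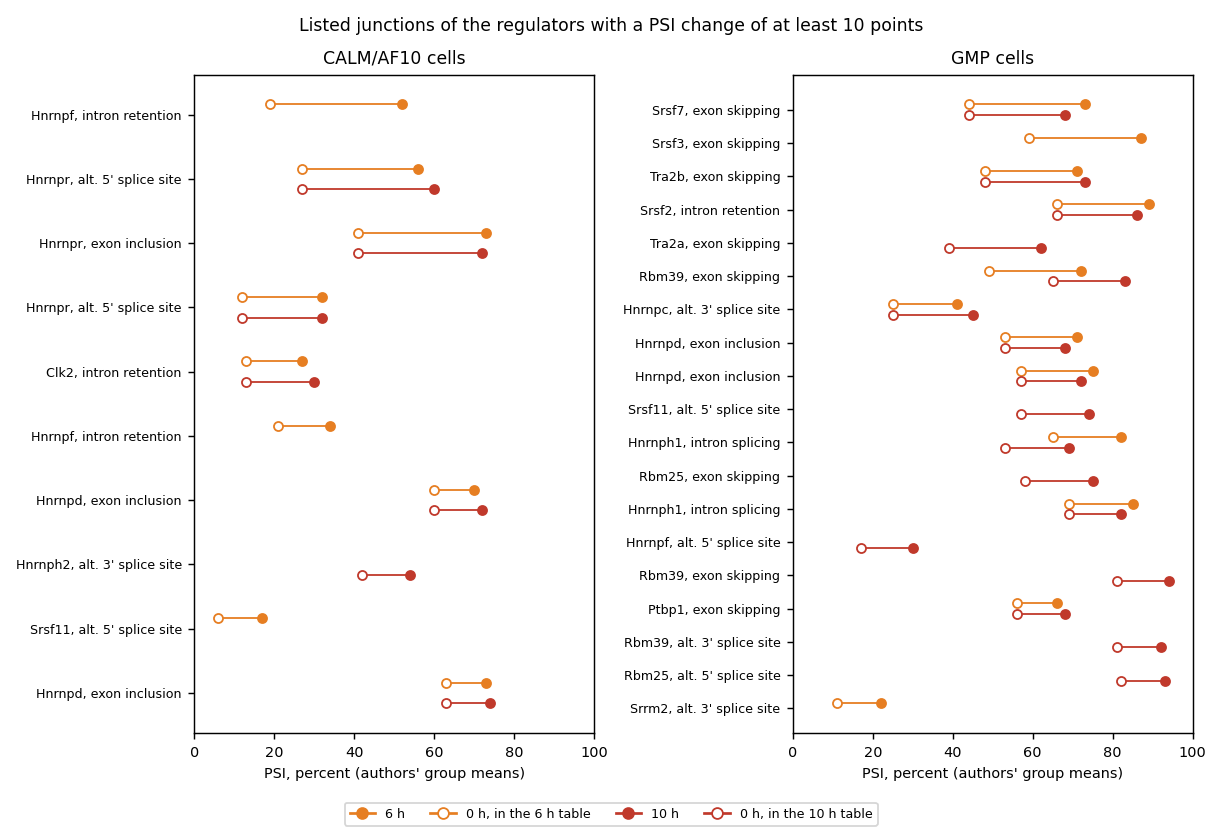
PSI in percent of the regulators' listed junctions whose PSI rose by at least 10 points, as the authors' group means in CALM/AF10 cells (left) and GMP (right). Filled circles are 6 h (orange) and 10 h (red), open circles the 0 h value of the same table; in GMP the Srsf7, Tra2b, Tra2a and Srsf3 rows are skipping of poison exons, and in CALM/AF10 cells Hnrnpf and Hnrnpr have the longest lines.

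Of 62 other splicing regulators, chosen as a list by name, 60 were tested in the time course. In GMP 16 rose and 14 fell at 6 h, and 22 rose and 12 fell at 10 h, which is 50% and 56.7% of the 60, against 44% and 45.1% of all genes. In CALM/AF10 cells 5 rose and 7 fell at 6 h, and 8 rose and 4 fell at 10 h, which is 20% at each time, against 12.6% and 19.2% of all genes. Zranb2, an SR-like zinc finger protein, rose in GMP (0.69 ± 0.10 and 0.85 ± 0.10) and fell in CALM/AF10 cells at 6 h (-0.37 ± 0.10, adjusted p = 0.042). Tardbp, the TDP-43 gene, rose in GMP by 0.63 ± 0.07 and 0.83 ± 0.07, and Rbm17 by 0.57 ± 0.05 at 6 h. Cirbp, a cold-inducible RNA binding protein, fell in GMP by 0.76 and 0.78 on the log2 scale, Tia1 by 0.72 and 0.70, Rbm5 by 0.69 at 6 h and Ptbp2, the neural paralog of Ptbp1, by 1.04 at 10 h. In CALM/AF10 cells Matr3 rose by 0.49 ± 0.07 and 0.72 ± 0.07, Fubp3 by 0.41 at 6 h and Scaf1 by 0.39 at 10 h. There Rbmx, the X-linked hnRNP G, fell by 0.46 and 0.51, Fubp1 by 0.67 at 6 h and 0.14 at 10 h, and Ddx17 by 0.20 at 10 h.

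Sap18, part of a complex that binds spliced mRNA, rose in both cell types. It had 31.5, 28.6 and 29.1 TPM at 0 h, 48.3, 56.6 and 42.5 TPM at 6 h and 56.1, 58.2 and 48.5 TPM at 10 h in CALM/AF10 cells. Every treated sample was above every untreated one, with changes of 0.70 ± 0.10 (adjusted p = 0.00204) and 0.84 ± 0.10 (adjusted p = 5.3e-04). In GMP it had 143, 119 and 134 TPM at 10 h against 52.7, 44.7 and 66.7 TPM at 0 h, a change of 1.27 ± 0.23 (adjusted p = 0.00183). Dcps, the target of RG3039, had 18.2, 18.3 and 19.9 TPM in CALM/AF10 cells at 10 h against 14.7, 16.7 and 14.9 TPM at 0 h, a change of 0.27 ± 0.07 (adjusted p = 0.0255). That call was lost when sample a or c of 0 h, or b or c of 10 h, was left out. At 6 h Dcps changed by 0.18 ± 0.07 (adjusted p = 0.132), and in GMP by -0.06 ± 0.14 (adjusted p = 0.767) and 0.19 ± 0.14 (adjusted p = 0.271). An inhibitor need not change the mRNA of its target, so these values do not check the treatment.

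The untreated lines of the same fusion differed from each other at most of these genes. In MLL/AF9 line 2 against line 1, 39 of the 42 were called in edgeR's quasi-likelihood test, 15 higher and 24 lower, against 56.6% of all genes, 25.8% higher and 30.7% lower. In CALM/AF10 line 2 against line 1 it was 25, with 20 higher and 5 lower, against 32% of all genes, 20.1% higher and 11.9% lower. Values below are CPM (estimated counts scaled to the library's total by TMM), which are not length-scaled and serve to compare samples of a gene. Markers of other cells moved with these comparisons. The stromal list summed to 83.9 to 94.4 TPM in MLL/AF9 line 2 against 3.8 to 4.42 TPM in line 1, the T cell list to 46.3 to 57.8 TPM against 12.2 to 13.1 TPM, and the endothelial list to 76.1 to 83.5 TPM against 41.6 to 44 TPM. The myeloid list summed to 8631 to 9102 TPM in MLL/AF9 line 2 against 13053 to 13393 TPM in line 1, and the erythroid list to 64.9 to 85.8 TPM against 44.6 to 51 TPM. In CALM/AF10 line 2 against line 1 the erythroid list summed to 131 to 138 TPM against 978 to 1251 TPM, and the eosinophil and mast cell list to 153 to 161 TPM against 205 to 214 TPM. The B cell list summed there to 11.8 to 17.4 TPM in line 2 against 27.7 to 57.9 TPM in line 1, and the stromal list to 10 to 12.7 TPM against 21 to 25.6 TPM. The part of these markers in the differences was not tested. Depth differed between the lines too. MLL/AF9 line 2 had 9629415 to 12226344 estimated reads per sample against 20401661 to 25194822 in line 1. CALM/AF10 line 2 had 16687118 to 21128000 against 8739673 to 11819510 in line 1. The part of depth in the differences was not tested either.

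In MLL/AF9 line 2 the kinases were higher than in line 1, and on counts most hnRNPs were lower. Clk1 had 210, 225 and 222 CPM in line 2 against 93.2, 105 and 97.9 CPM in line 1, a log2 difference of 1.15 ± 0.06 (adjusted p = 2.0e-11). Clk2, Clk4, Srpk1 and Srpk2 were also higher, by 0.17 to 0.99, so that 5 of the 6 kinases passed the test, and Srpk2 was the only 1 of them whose samples overlapped. Of 19 hnRNPs 17 were lower and 2 higher on counts, and 10 of the 17 were also lower in TPM. Hnrnpf had 235, 226 and 241 CPM in line 2 against 649, 613 and 621 CPM in line 1 (-1.42 ± 0.05, adjusted p = 2.8e-14). Ptbp3 had 218, 210 and 226 CPM against 570, 552 and 574 CPM in line 1 (-1.38 ± 0.04, adjusted p = 1.4e-14). Hnrnpa0 (-1.27 ± 0.07, adjusted p = 2.0e-11), Hnrnph2 (-1.21 ± 0.11, adjusted p = 4.6e-08) and Hnrnpab (-1.17 ± 0.05, adjusted p = 4.5e-13) followed. Hnrnph1 and Hnrnph3 were the 2 that were higher, by 0.55 and 0.46. Srsf9 was lower (-1.04) and Son higher (0.66), and SR proteins as a group had 4 higher and 6 lower.

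The direction of many of these differences depends on the scale. The fit on log2(TPM + 1) divides by transcript length, leaves out TMM scaling and filters low genes otherwise than the fit on counts. TPM also depends on how reads were assigned to a gene's transcripts. On this scale the median of all genes was 0.42, against 0.08 on counts. In MLL/AF9 line 2, 22 of the 42 were then higher and 11 lower, against 42.2% and 14.7% of all genes. Which of these steps turned a direction round was not tested. On both scales 15 were higher, including Clk1, Clk2, Clk4, Srpk1, Srpk2, Hnrnph1, Hnrnph3, Rbm39, Rbm25, Son and Srrm2. Another 11 were lower on both, Srsf9 and 10 hnRNPs, among them Hnrnpf (-0.84 in TPM), Hnrnpa0, Hnrnph2 and Hnrnpab. Srsf10, Hnrnpr, Hnrnpu and Srrm1 were called in opposite directions, and Ptbp3 was no longer called (-0.18 ± 0.12 in TPM, adjusted p = 0.205). In CALM/AF10 line 2 against line 1 the TPM scale gave 16 higher and 3 lower, against 15.5% and 6.31% of all genes, with no member called in opposite directions on the 2 scales.

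Unlike MLL/AF9 line 2, CALM/AF10 line 2 had more reads than line 1 of its fusion, and it differed from line 1 mostly the other way round. Clk1 had 125, 116 and 124 CPM in line 2 against 190, 203 and 207 CPM in line 1 (-0.72 ± 0.06, adjusted p = 9.7e-08). Tra2a had 160, 142 and 151 CPM against 269, 261 and 228 CPM in line 1 (-0.75 ± 0.07, adjusted p = 1.1e-07). Of the hnRNPs 13 were higher and none lower, led by Hnrnpm with 345, 338 and 324 CPM against 214, 234 and 211 CPM in line 1 (0.61 ± 0.06, adjusted p = 3.5e-07), Ptbp1 (0.52 ± 0.05, adjusted p = 3.8e-07) and Hnrnpf (0.51 ± 0.05, adjusted p = 2.1e-07). Srsf9 was higher (0.61 ± 0.12, adjusted p = 9.6e-04). On counts 18 members were higher in CALM/AF10 line 2 and lower in MLL/AF9 line 2, each against line 1 of its fusion, and 4 were the reverse: Srsf5, Tra2a, Clk1 and Rbm39. Of all 17052 genes tested in both, 14.3% were called in the first pair of directions and 7.33% in the reverse. In TPM 8 of the 18 had both calls in the same directions, as did Tra2a, Clk1 and Rbm39 of the 4. Which line is called 1 or 2 carries no meaning, so these counts only describe the pairs.

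**Figure D4:**
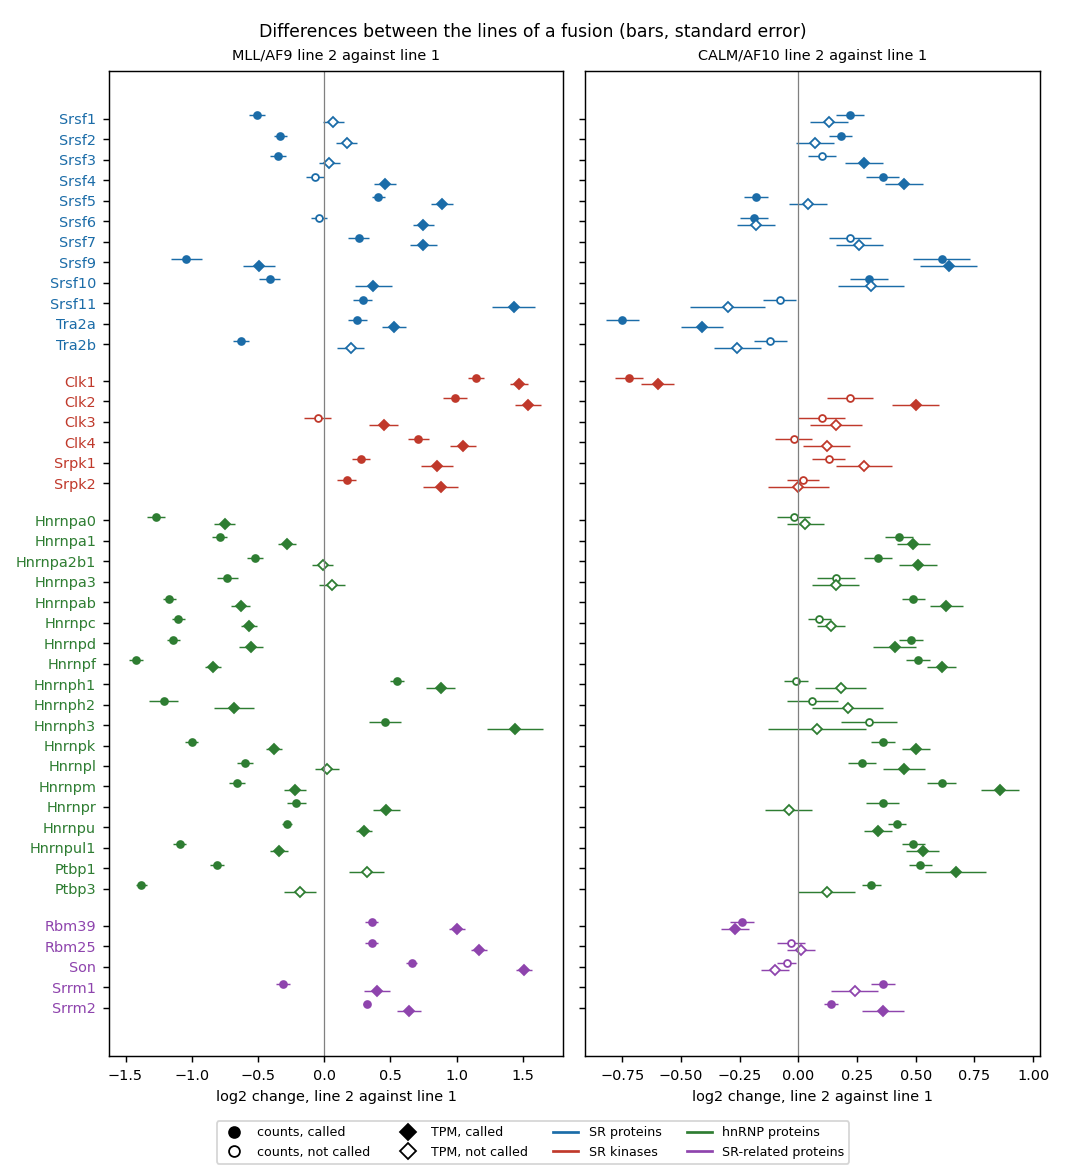
Log2 difference of line 2 against line 1 for the 42 regulators within MLL/AF9 (left) and CALM/AF10 (right), on counts (circles) and on log2(TPM + 1) (diamonds), with standard errors and filled symbols for called genes; the horizontal scales differ. In MLL/AF9 the TPM values lie to the right of the count values, and the kinases lie above 0 on both scales apart from Clk3 on counts.

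Between the fusions no regulator was called when the lines served as replicates, 2 against 2. In edgeR's test 0 of the 42 passed, against 2.84% of all genes called, 1.06% higher and 1.78% lower. There 1 member was under an unadjusted p of 0.05, against 2365 of all 19055 genes. DESeq2 also called 0 members, against 529 higher and 747 lower of all 17854 genes. The largest differences of MLL/AF9 against CALM/AF10 were -0.96 ± 0.39 for Srpk2 (adjusted p = 0.353) and 0.89 ± 0.44 for Clk2 (adjusted p = 0.5). Clk1 had -0.04 ± 0.50 (adjusted p = 0.999), with its lines at 219 and 98.9 CPM on average in MLL/AF9 lines 2 and 1 and at 122 and 200 CPM in CALM/AF10 lines 2 and 1. The lines of a fusion thus differed from each other by more than the fusions did for Clk1. Without MLL/AF9 line 1 the test called 6 members, 1 higher and 5 lower, against 4.68% and 12.5% of all genes.

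The lines' files give transcripts, which allows the share of each gene's TPM in transcripts with no protein-coding type, that is NMD, retained-intron and other processed transcripts, to be followed. These shares are estimates, because reads were assigned to overlapping transcripts, and no other measure of them was available. For Hnrnph1 the mean share was 96.4% in CALM/AF10 line 1 and 98.9% in MLL/AF9 line 2, so the percentages are not read as measured isoform use. The 42 genes had 395 annotated transcripts, 172 protein coding, 115 with a retained intron, 57 of the NMD type and 51 processed. In 34 genes both kinds could be compared, and for the other 8 the files list coding transcripts alone: Hnrnpc, Hnrnpab, Hnrnph2, Hnrnpf, Clk3, Hnrnpa1, Hnrnpa0 and Srsf7. The median non-coding share of the 34 was 67.8% in MLL/AF9 line 2 and 51.5% in line 1, and 52.2% in CALM/AF10 line 2 and 61.5% in line 1. In each fusion the line with the higher median had fewer reads, and the part of depth was not tested. With TPM summed over all protein-coding genes of a sample, the share was 27.4 to 28.4% in MLL/AF9 line 2 against 23.7 to 24.3% in line 1. It was 18.3 to 18.7% in CALM/AF10 line 2 against 16.5 to 16.6% in line 1. This pooled share includes genes with no non-coding transcript and is not a median over genes. Its level is therefore not comparable with that of the 34.

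In MLL/AF9 line 2 against line 1 the log2 ratio of non-coding to coding TPM was higher for 21 of the 34 and lower for none, against 26.9% of all 6385 genes tested, 24.5% higher. The median of all genes was itself shifted by 0.75, and relative to that median 9 members were higher and 5 lower, against 6.59% and 5.86% of all genes. Without replicate 2 of line 1 the count was 13. Tra2a had 76.7%, 81.1% and 85.7% of its TPM in non-coding transcripts in line 2 against 39.1%, 37.7% and 38.9% in line 1 (2.76 ± 0.46, adjusted p = 0.0018). Its poison exon transcript, Tra2a-202, was at 33.9, 39.2 and 43.7 TPM in line 2 against 12.2, 10.1 and 11.2 TPM in line 1. Rbm39 had 84.3%, 93% and 90.4% against 65.4%, 61.5% and 59.2% in line 1 (2.41 ± 0.35, adjusted p = 8.3e-04). Hnrnpa2b1 had 24.9%, 26.9% and 27.1% against 6.88%, 6.36% and 6.06% in line 1 (2.37 ± 0.18, adjusted p = 3.2e-05), and Rbm25 had 45.3%, 46.2% and 40.3% against 13%, 15% and 11.4% in line 1 (2.35 ± 0.21, adjusted p = 8.5e-05). No sample of these 4 genes overlapped between the lines. Ptbp3 (2.46 ± 0.47, adjusted p = 0.00377) and Clk1 (2.65 ± 0.73, adjusted p = 0.0222) completed the largest differences, but Clk1 lost its call relative to the median gene (1.94) and whichever sample but replicate 2 of line 2 was left out.

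In CALM/AF10 line 2 against line 1 the ratio was lower for 4 of the 34 and higher for none, against 1.77% of all genes, 1.33% lower. Tra2a had 43.3%, 49.8% and 42.1% in non-coding transcripts in line 2 against 74.6%, 80.5% and 93.5% in line 1 (-2.68 ± 0.46, adjusted p = 0.0176). Tra2b had 43.3%, 42.3% and 41.6% against 67.1%, 58.4% and 80% in line 1 (-1.59 ± 0.32, adjusted p = 0.0349). Hnrnpa2b1 (-1.12 ± 0.18, adjusted p = 0.0123) and Rbm25 (-1.04 ± 0.21, adjusted p = 0.0378) were the others. All 4 were among the 21 of 34 that were higher in MLL/AF9 line 2, an overlap that was not counted over all genes. Their CALM/AF10 calls were fragile: none of them was called without replicate 2 or without replicate 3 of line 2. With NMD transcripts alone as the numerator none was called there, against 0.387% of all 2067 genes tested, and 8 were higher and 3 lower of 29 in MLL/AF9, against 7.74% and 3.14% of all genes. Between the fusions 0 of the 34 were called and 0 had an unadjusted p under 0.05 in limma, as were 0 of all 6385 genes, of which 222 had an unadjusted p under 0.05. No other tool was run on the shares.

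**Figure D5:**
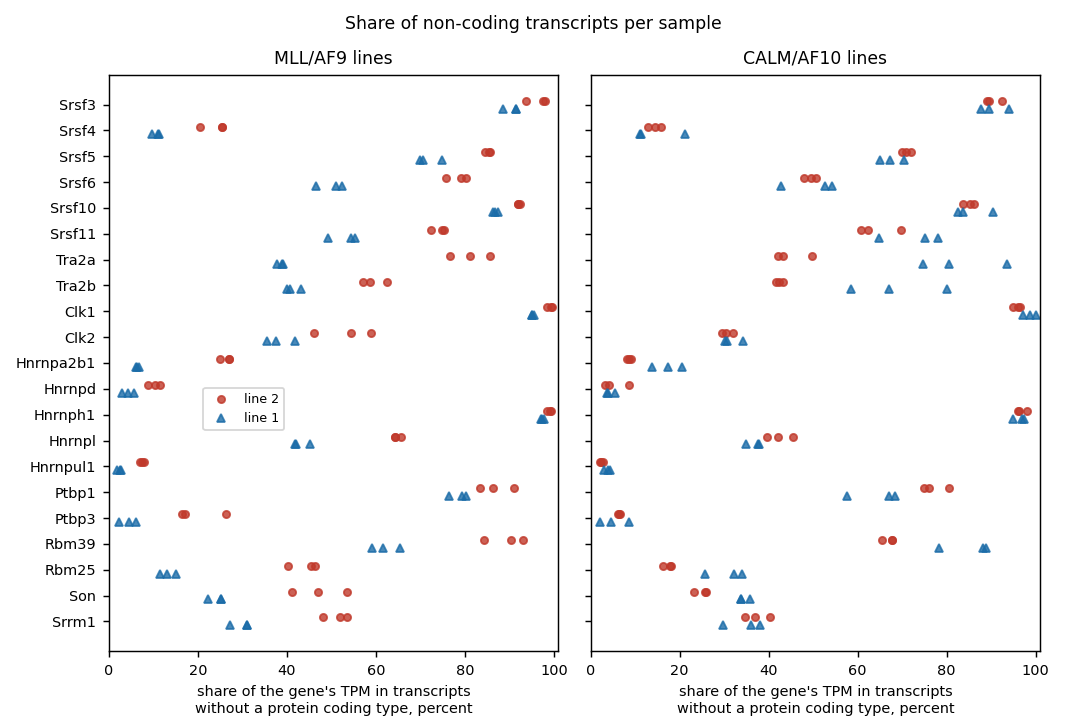
Percent of a gene's TPM in transcripts without a protein-coding type, per sample, for the 21 regulators called in MLL/AF9 line 2 against line 1, with line 2 as circles above line 1 as triangles in MLL/AF9 (left) and CALM/AF10 (right). Tra2a, Tra2b, Hnrnpa2b1 and Rbm25, called in both fusions, lie to the right of line 1 in MLL/AF9 line 2 and to the left of it in CALM/AF10 line 2. Rbm39 lies the same way but was not called in CALM/AF10.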

How the data were processed

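Bulk RNA-seq was made from total RNA of 30 samples in 10 groups of 3. The submitters' processing notes name STAR and mm10, and other steps are not given in the sources used here. Gene-level TPM values of the time course were deposited by the authors in one table per cell type, so levels were tested within a table and set side by side across tables. For the lines the authors deposited TPM and estimated counts per transcript. The deposited junction tables hold, per the file headers, the authors' group-mean PSI in percent, a log2 ratio of PSI odds, an adjusted q-value and a mean raw count, which is treated here as a score because it is a rounded mean. These tables list only junctions at q under 0.05 whose share was higher after treatment.

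The 42 genes, the marker lists and the 62 other regulators were chosen with earlier results of these data known. Time-course changes were tested with limma 3.58.1 (R 4.3.3) on log2(TPM + 1), over all genes with at least 1 TPM in at least 3 samples, and fold changes on that scale understate the change of low genes. The line transcripts were assigned to genes and types through GENCODE M21 (98294 of 99567 transcripts, with 0.709 to 1.12% of reads outside it), their estimated counts were summed and rounded to whole numbers, and the lines were compared with edgeR 4.0.16 (quasi-likelihood, TMM), the fusions on counts summed per line. Isoform shares were tested with limma on log2((non-coding TPM + 0.5)/(coding TPM + 0.5)) for genes with a mean of at least 5 TPM. All p-values were adjusted by Benjamini-Hochberg over all genes, all tests were two-sided, and the scripts were tested on simulated data with known changes. DESeq2 1.42.0 was an alternative. TPM in place of counts, isoform ratios centred on the median gene and the classes of junctions were chosen after the data had been seen. Full statistics were given for at most 6 called genes of the largest change per comparison, for Clk1 and Dcps always, and for every gene with a junction listed at both times in a cell type. Of the other regulators the 3 largest rises and 3 largest falls against 0 h were named, and of the junctions the 8 with the largest PSI change per table and those listed at both times; the remaining genes, junctions and values were picked as examples after their values were seen.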

Additional observations from a re-analysis of the deposited data

Results flagged for a closer look

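The change after RG3039 differed between CALM/AF10 cells and GMP for several regulators, by limma's test of the difference itself. The values are the log2 change in CALM/AF10 cells less that in GMP. At 6 h they were 1.88 for Clk1, 0.69 for Rbm39, -0.80 for Srsf2, -0.75 for Srsf9, -0.62 for Hnrnpab and -0.60 for Srsf7. At 10 h they were 1.38 for Clk1, 0.60 for Hnrnpul1, -0.79 for Srsf2, -0.78 for Srsf9, -0.78 for Hnrnpab and -0.65 for Srsf1. Each of these 12 had an adjusted p of at most 5.0e-04. Each cell type had its own table, normalized separately, and the fall of the myeloid marker sum in GMP moved with these differences, whose dependence on it was not tested.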

How the results depend on the processing

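Of the counts of called regulators, 59 of 68 values under other settings and 97 of 122 with a sample or line left out, and of the counts of listed junctions 10 of 12, stayed within 1.5 times the reported one. Without the filter on low values 3 were called in CALM/AF10 cells at 6 h, 1 between 10 h and 6 h there, and 3 between 10 h and 6 h in GMP. That last count was 2 after quantile normalization, and the one between 10 h and 6 h in CALM/AF10 cells was 0 with these groups alone. Splits of higher and lower calls not given above were, for example, 3 and 9 (these groups alone) in CALM/AF10 cells at 6 h, 6 and 7 (quantile normalization) at 10 h, and 15 and 7 (these lines alone) in the CALM/AF10 lines. With a PSI change of at least 10 points, 9 junctions at 6 h and 7 at 10 h remained in CALM/AF10 cells. Isoform calls in the CALM/AF10 lines were 0 with NMD transcripts alone, 2 relative to the median gene and 2 with the replicate block, and in the MLL/AF9 lines 11 with NMD transcripts alone.

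With 1 sample left out the counts ranged from 1 to 12 in CALM/AF10 cells at 6 h, 6 to 11 at 10 h and 0 to 3 between these times, and from 18 to 23, 21 to 26 and 1 to 6 in GMP. They ranged from 23 to 26 in the CALM/AF10 lines, 36 to 39 in the MLL/AF9 lines and 0 to 6 between fusions. Isoform calls ranged from 0 to 4, 13 to 17 and 0 to 2, the last being 2 without MLL/AF9 line 1. Signs of single genes turned round in some settings. Quantile normalization gave -0.05 for Hnrnpd, -0.03 for Ptbp1 and -0.05 for Srrm2 at 10 h in CALM/AF10 cells, -0.13 for Hnrnpc and -0.05 for Ptbp1 at 10 h in GMP, and -0.06 for Hnrnpa2b1, -0.07 for Hnrnpd, -0.06 for Srsf2 and -0.04 for Tra2b between 10 h and 6 h. Median centring gave 0.03 for Hnrnpa2b1 at 10 h in GMP. In TPM, Dcps was at 0.01 in the MLL/AF9 lines and 0.41 between fusions, and Clk1 at 0.51 between fusions. The isoform ratio of Clk1 was 1.18 in the CALM/AF10 lines with NMD transcripts alone, and relative to the median gene that of Dcps was 0.02, -0.67 and -0.03 in the CALM/AF10 lines, the MLL/AF9 lines and between fusions.

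With 1 sample left out, in CALM/AF10 cells Hnrnpk (-0.01 to 0.02) and Srsf11 (-0.02 to 0.06) changed sign at 6 h, Hnrnpd (-0.01 to 0.08), Ptbp1 (-0.01 to 0.12), Srrm2 (-0.04 to 0.05) and Srsf11 (-0.10 to 0.01) at 10 h, and Clk2 (-0.02 to 0.18) between these times. In GMP it was Dcps at 6 h (-0.24 to 0.07), Hnrnpc at 10 h (-0.03 to 0.12), and Hnrnpd (-0.02 to 0.11), Srsf2 (-0.06 to 0.16) and Tra2b (-0.03 to 0.07) between these times. Between fusions it was Clk1 (-0.74 to 0.31) and Dcps (-0.58 to 0.01), and for isoform ratios Clk1 between fusions (-0.93 to 1.58) and Dcps in the CALM/AF10 lines (-0.43 to 0.10) and the MLL/AF9 lines (-0.17 to 0.29). The causes were not tested.

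No paired analysis was possible because the columns of the time course carry no replicate number. In the lines same-numbered samples did not deviate together (correlations of 0.00146 to 0.0398), and a replicate block left 25 calls in CALM/AF10 lines, 38 in MLL/AF9 lines and 19 isoform calls in MLL/AF9 lines. The depth of the time course is unknown, which limits what can be said of low genes.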
